A study of Mus musculus with 2 samples.

Results

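The genes described here encode the 3 TGF-beta ligands (Tgfb1, Tgfb2, Tgfb3), the signalling receptors of these ligands (Tgfbr1, Tgfbr2), and the TGF-beta or BMP targets Tgfbi, Id1, Id2, Id3 and Smad7. Members were all array probes whose platform gene symbol is one of these 10 symbols. Of the 10 genes, 9 had a named probe, with 11 probes among the 9762 probes that carry a symbol and 9 among the 7939 genes those probes represent. Smad7, the inhibitory SMAD that blocks the activated TGF-beta receptor, had no named probe and no value here. Each of the 9 genes had 1 probe detected on both arrays, and Tgfbr2 and Tgfbi each had a further probe that was not.

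RNA came from SN4741 cells, an immortalized mouse line with dopaminergic neuronal origin, kept in RF medium at 33 C. An Illumina bead array carried RNA of cells 12 h into Oxi-beta overexpression, and the other carried RNA of control cells labelled 0 h. RNA of 3 samples was pooled for each array. With 1 array per group no spread between replicates could be measured and no difference was tested. The vector, and what the control cells received, are not given in the sources used here, and hours in culture and overexpression cannot be told apart. Oxi-beta is known as a name of Tnfaip8l1, for which 0 named probes were found. An undetected probe would carry no symbol here, so whether the array holds a probe for the introduced gene is not known. Its level was not read.

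TGF-beta ligands are secreted in a latent form held in the matrix, and once freed they bind the type II receptor, which then activates the type I receptor. The activated type I receptor phosphorylates SMAD2 and SMAD3, which join SMAD4 and enter the nucleus. BMP ligands use related receptors and SMAD1, SMAD5 and SMAD9, and the Id genes are among their most direct targets. Id proteins lack a DNA-binding region and hold basic helix-loop-helix factors away from DNA. In the midbrain, TGF-beta signalling is known for its part in the survival and differentiation of dopamine neurons.

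The 3 ligand genes lay lower on the overexpression array, the receptor genes were near 0 difference, and the Id genes were level or slightly higher. Log2 differences, overexpression minus control, were -0.39 for Tgfb3, -0.34 for Tgfb1 and -0.25 for Tgfb2. Tgfbi, which encodes a matrix protein named for its induction by TGF-beta, was at -0.38. Id1 was at 0.23, Id2 at 0.10 and Id3 at 0.0135. All of these were small. Of the 9 genes 0 reached 1.5-fold in either direction, where 0.582% of 6702 detected genes were that much higher and 0.433% that much lower, and 0 reached 2-fold, against 0.283% higher and 0.0149% lower.

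Promoter sequence is given for 5 of the genes, 3 from the lower side (Tgfb1, Tgfb2, Tgfbi) and the Id genes Id2 and Id3 for contrast. Each is the 250 bases before the start site in the RefSeq promoter table (GRCm38.p6), written 5′ to 3′ on the strand of the gene. For 7 of the 10 genes 8 sequences were shown or counted here, Tgfbr1 having 2 start sites, and Tgfb3, Id1 and Smad7 are named only. Capitals mark the pentamer CAGAC on either strand (GTCTG on the other), which contains the short element bound by SMAD3 and SMAD4, and the palindrome GGCGCC, a GC-rich element bound by SMAD1 and SMAD5.
Tgfb1, chr7:25686752-25687001, plus strand: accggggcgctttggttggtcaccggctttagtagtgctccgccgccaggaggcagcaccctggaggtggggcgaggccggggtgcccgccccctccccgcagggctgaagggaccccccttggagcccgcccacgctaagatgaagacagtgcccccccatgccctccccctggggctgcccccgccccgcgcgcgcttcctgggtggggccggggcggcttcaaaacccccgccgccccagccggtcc
Tgfb2, chr1:186705990-186706239, minus strand: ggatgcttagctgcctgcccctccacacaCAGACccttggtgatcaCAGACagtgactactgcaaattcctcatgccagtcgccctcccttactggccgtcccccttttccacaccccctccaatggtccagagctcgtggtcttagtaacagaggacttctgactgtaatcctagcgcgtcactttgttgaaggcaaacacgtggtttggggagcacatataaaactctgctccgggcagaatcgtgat
Tgfbi, chr13:56609336-56609585, plus strand: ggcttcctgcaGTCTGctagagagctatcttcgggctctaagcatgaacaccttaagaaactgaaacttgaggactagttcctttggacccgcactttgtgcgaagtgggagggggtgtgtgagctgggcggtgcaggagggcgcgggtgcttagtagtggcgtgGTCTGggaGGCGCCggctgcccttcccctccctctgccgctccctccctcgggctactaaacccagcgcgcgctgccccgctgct
Id2, chr12:25096093-25096342, minus strand: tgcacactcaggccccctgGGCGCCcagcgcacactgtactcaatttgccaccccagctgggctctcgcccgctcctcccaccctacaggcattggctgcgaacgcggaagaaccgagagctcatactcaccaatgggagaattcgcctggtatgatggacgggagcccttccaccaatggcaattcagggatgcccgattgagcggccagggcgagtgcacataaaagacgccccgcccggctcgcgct
Id3, chr4:136143572-136143821, plus strand: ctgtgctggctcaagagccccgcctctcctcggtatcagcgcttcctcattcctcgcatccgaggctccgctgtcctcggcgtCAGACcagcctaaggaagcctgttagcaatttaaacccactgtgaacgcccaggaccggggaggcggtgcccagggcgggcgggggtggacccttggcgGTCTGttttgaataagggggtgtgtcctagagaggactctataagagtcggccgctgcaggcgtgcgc
No marked motif overlapped another. CAGAC or GTCTG occurred in 5 of the 8 sequences, while 42.2% of all 32851 promoter sequences of this length hold it. GGCGCC occurred in 3 of the 8, against 9.59% of all. Among the lower genes the Tgfb1 sequence held neither motif, the Tgfb2 sequence held CAGAC at 2 places, and the Tgfbi sequence held both motifs. The Id2 sequence held GGCGCC once and the Id3 sequence held CAGAC or GTCTG at 2 places. GC content was 75.2% in the Tgfb1 sequence and 53.6% in the Tgfb2 sequence, against a median of 52.4% over all promoters. The 3 sequences with GGCGCC had a GC content of 74.8% (Tgfbr1), 62.4% (Tgfbi) and 62.8% (Id2), and the share of 9.59% was not matched for GC content. A match describes the letters in this window and shows no binding.

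A probe was called detected at a detection p-value under 0.01. Over the whole arrays, 8799 of 24613 probes were detected on the overexpression array and 8814 on the control array, and the lowest detected signal was 196 with overexpression and 201 in the control. The brightest named probe stood for its gene, and 6702 genes were detected on at least 1 array. Signals were background-corrected and quantile-normalized, which centred the differences of these genes at a median of -0.0036, with the central 95% between -0.34 and 0.33. Before normalization the median ratio of deposited signals over the same genes, overexpression over control, was 0.947. Of the 13 dopamine neuron markers looked up, 3 (Nr4a2, Foxa2 and En1) were detected, and Th and Slc6a3, which define the dopamine phenotype, had no detected named probe. Among 13 fibroblast and mesenchymal markers 5 were detected, including Vim and Col1a1.

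Tgfb3 encodes the ligand best known for palate fusion and epithelial development. Its probe read 1105 on the overexpression array and 1502 on the control array, with a detection p-value of 0 on both. The overexpression array was the lower of the pair, at 0.735 of the control signal. After normalization Tgfb3 was 1.31-fold lower, and 1.66% of the 6702 genes had a difference as low or lower.

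Tgfb1 encodes the ligand that restrains immune cells and drives matrix production in many tissues. Its signals were 353 on the overexpression array and 445 on the control array, again lower with overexpression, and Tgfb1 was 1.27-fold lower after normalization. Among the ligand probes it lay nearest to the lowest detected signal, and 2.39% of genes lay as low or lower. Tgfb2 encodes a ligand needed for heart, eye and craniofacial development. Tgfb2 read 2292 with overexpression and 2853 in the control, a 1.19-fold lower level, with 5.86% of genes as low or lower. The ratios of deposited signals were 0.735 for Tgfb3, 0.793 for Tgfb1 and 0.803 for Tgfb2, all under the median ratio of 0.947 over all detected genes. No ligand gene had a further named probe to set beside these.

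**Figure D1:**
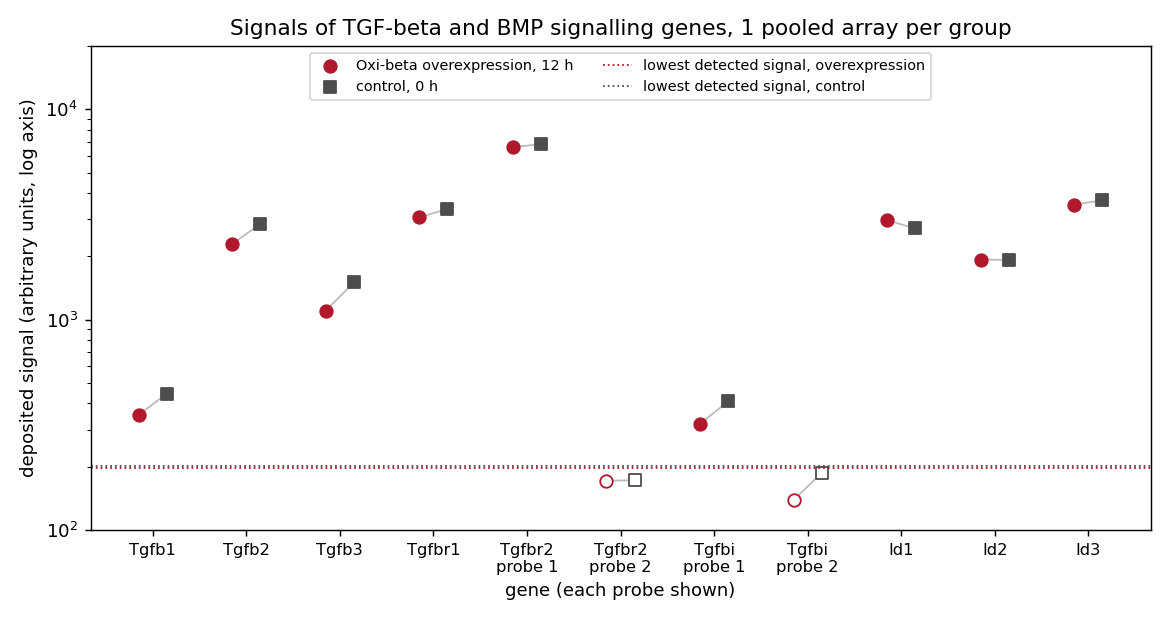
Deposited signal of every probe of the 9 genes (log axis, arbitrary units) on the overexpression array (circles) and the control array (squares). Open symbols mark the probes of Tgfbr2 and Tgfbi that were not detected, and the dotted lines mark the lowest detected signals, 196 and 201. The ligand probes and both Tgfbi probes are lower on the overexpression array, while the Id and receptor probes lie close to level. Heights of different probes are not comparable as amounts of RNA.

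The receptor genes differed little. Tgfbr1 encodes the type I receptor kinase that phosphorylates SMAD2 and SMAD3. Its probe read 3059.7 on the overexpression array and 3363 on the control array, and the log2 difference was -0.049. Tgfbr2 encodes the type II receptor that binds the ligand first. Its detected probe read 6605 with overexpression and 6824 in the control, with a log2 difference of 0.022. The further Tgfbr2 probe read 171.5 with overexpression and 172.5 in the control. Its detection p-values were 0.0207 on the overexpression array and 0.017 on the control array, so it was not detected on either. Both receptor genes lay inside the central 95% of all genes, below which Tgfb3, Tgfbi and Tgfb1 lay.

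Tgfbi, the matrix protein gene, followed the ligands in direction. Its detected probe read 319.6 on the overexpression array, with a detection p-value of 0.0012, and 409 on the control array, with a detection p-value of 0. The level was 1.30-fold lower after normalization, and 1.85% of genes lay as low or lower. The further probe of Tgfbi was lower as well, at 139 with overexpression and 187 in the control, but its detection p-values were 0.0645 and 0.0122, so it was not well above background on either array and no fold is given.

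Of the members, Id1 had the highest difference, and Id2 and Id3 lay closer to 0. Id1 read 2969.7 on the overexpression array and 2712 on the control array. The ratio of its deposited signals was 1.09, the highest of the 9 genes, and its normalized level was 1.17-fold higher, with 6.51% of genes as high or higher. Id2, which in neural cells holds back differentiation factors, read 1931 with overexpression and 1921 in the control. Id3 read 3521 with overexpression and 3689 in the control, a deposited ratio of 0.954 that normalization placed at a log2 difference of 0.0135. The directions of Id2, Id3 and Tgfbr2 depended on the scaling. When the arrays were scaled by centring on the median of all probes in place of quantile normalization, the median of all detected genes moved to -0.10, and the 3 genes had log2 differences of -0.0017, -0.079 and -0.057. Relative to that median they were at 0.098, 0.021 and 0.043, and Id1 was at 0.23.

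Genes were counted at a log2 difference of 0.32 or more in size. Of the 9 members 3 were that much lower (Tgfb3, Tgfbi and Tgfb1) and 0 that much higher, where 2.83% of all detected genes (190) were that much lower and 2.7% (181) that much higher. Centring on the median changed this split of all genes to 508 lower and 93 higher. The median of the 9 members was -0.049, against -0.0036 over all detected genes, and 5 of 9 lay below 0 and 4 above, against 51.0% and 48.6% of all. By role, the 3 ligand genes had a median of -0.34, the 2 receptors -0.013 and the 4 measured targets 0.059.

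The spread of all genes narrowed with signal, and this set how far each member stood out. The 6702 genes were divided into 3 classes of equal size by their signal. In the dimmest class, which held Tgfb1 and Tgfbi, the central 95% of differences ran from -0.48 to 0.46, and both genes lay inside it. In the middle class it ran from -0.28 to 0.28, and Tgfb3 lay below it while Id2 lay inside. In the brightest class it ran from -0.22 to 0.21, with Tgfb2 just below it at -0.25, Id1 just above it at 0.23, and Tgfbr1, Tgfbr2 and Id3 inside. These ranges describe differences between genes on 2 arrays and are not replicate error. Probes of the same gene detected on both arrays (999 genes) had a root mean square SD of 0.149 in their log2 differences, which measures disagreement between probes and holds no variation between samples.

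**Figure D2:**
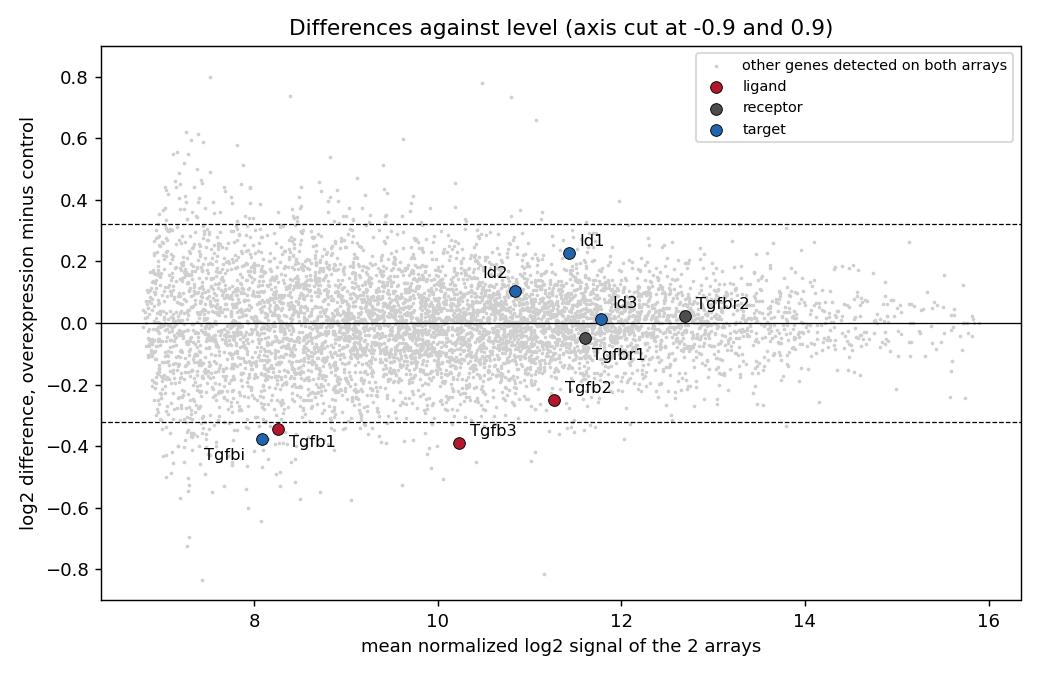
Log2 difference, overexpression minus control, against the mean normalized log2 signal of the 2 arrays. Grey points are the other genes detected on both arrays, coloured points are the 9 members by role, and dashed lines mark differences of -0.32 and 0.32. Tgfb3, Tgfb1 and Tgfbi lie below the lower line. Tgfb2 lies toward the lower side and Id1 toward the upper side of the grey points of similar signal. Some grey points of similar signal lie further out than either gene.

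The wider pathway was read from a list of 102 further genes, of which 68 had a named probe and 59 were detected. Of these 59, 37 lay below 0 and 21 above, where 51.0% of all detected genes lay below 0 and 48.6% above. Their median was -0.068, against -0.0036 for all genes. At a log2 difference of 0.32 in size, 3 were higher (Smurf1, Cdkn1a and Id4) and 2 lower (Rgma and Fstl3), where 2.7% of all detected genes were that much higher and 2.83% that much lower. These counts are close to that background. Rgma and Fstl3 had detected signals in the control only. With genes detected on 1 array set at the bound on the background-corrected scale, which subtracts background and so widens ratios, the counts were 3 higher and 0 lower. Where signals were left uncorrected and values under the lowest detected one were raised to it (floored), the counts were 1 higher (Cdkn1a) and 0 lower.

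Among other ligands only 2 were detected. Bmp4, a BMP ligand that acts through SMAD1 and SMAD5, read 6523 with overexpression and 6665 in the control, a log2 difference of 0.039 that was -0.041 with median centring. Bmp1, a protease that matures procollagen and, despite its name, is no BMP ligand, was at -0.22. Of the 8 detected genes of ligand storage and activation 6 lay below 0. Thbs1, which encodes thrombospondin-1, an activator of latent TGF-beta, was lowest at -0.27, with signals of 765 on the overexpression array and 963 on the control array. Itgav, the integrin chain that binds the latency peptide, was highest at 0.12. The probes of Ltbp1, a latent TGF-beta binding protein singled out after its values were seen, did not move together. Its bright probe was at -0.0100 with signals of 3644 on the overexpression array and 3866 on the control array, while a dim probe, detected on the overexpression array only, read 216 with overexpression and 152 in the control.

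Of 5 detected receptors and co-receptors outside the members, Bmpr1a, a type I receptor for BMPs, was highest at 0.12. Rgma, a BMP co-receptor, had the lowest fitted value, read 166 with overexpression and 208 in the control. Its log2 difference was -0.079 at the bound on the background-corrected scale and -0.0091 from uncorrected floored signals, so no clear difference could be read. The signalling SMADs, singled out after their values were seen, lay close to 0, with Smad1 at 0.16, Smad3 at -0.032, Smad4 at -0.11 and Smad2 at -0.12. In their group the adaptor genes spanned the range, from Zfyve16 (endofin) at -0.29 to Zfyve9 (SARA, which presents SMAD2 and SMAD3 to the receptor) at 0.17.

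Among 16 detected inhibitors, 9 lay below 0 and 7 above. Smurf1, a ubiquitin ligase that removes SMADs and receptors, was highest at 1.32-fold, but near background, with signals of 251 on the overexpression array and 217 on the control array. Fstl3, which traps activins, had the lowest fitted value and read 174 with overexpression and 215 in the control. Its log2 difference was -0.17 at the bound on the background-corrected scale and -0.057 from uncorrected floored signals. Of 15 detected TGF-beta targets 9 lay below 0, 5 above and Tpm1 at 0.0, with a median of -0.13. Cdkn1a, which encodes the cell cycle inhibitor p21 and is also a p53 target, was 1.29-fold higher at signals of 2193 with overexpression and 1822 in the control, and its further probe lay at 0.42. Junb, an AP-1 subunit, was lowest at -0.30, with signals of 588 on the overexpression array and 746 on the control array. Of 6 detected BMP targets, Hey1, a repressor also driven by Notch, was lowest at -0.28. Id4, the remaining Id gene, was detected on the overexpression array only, with signals of 223 there and 187 in the control, a ratio of 1.19. Its log2 difference was 0.32 at the bound on the background-corrected scale and 0.22 from uncorrected floored signals.

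**Figure D3:**
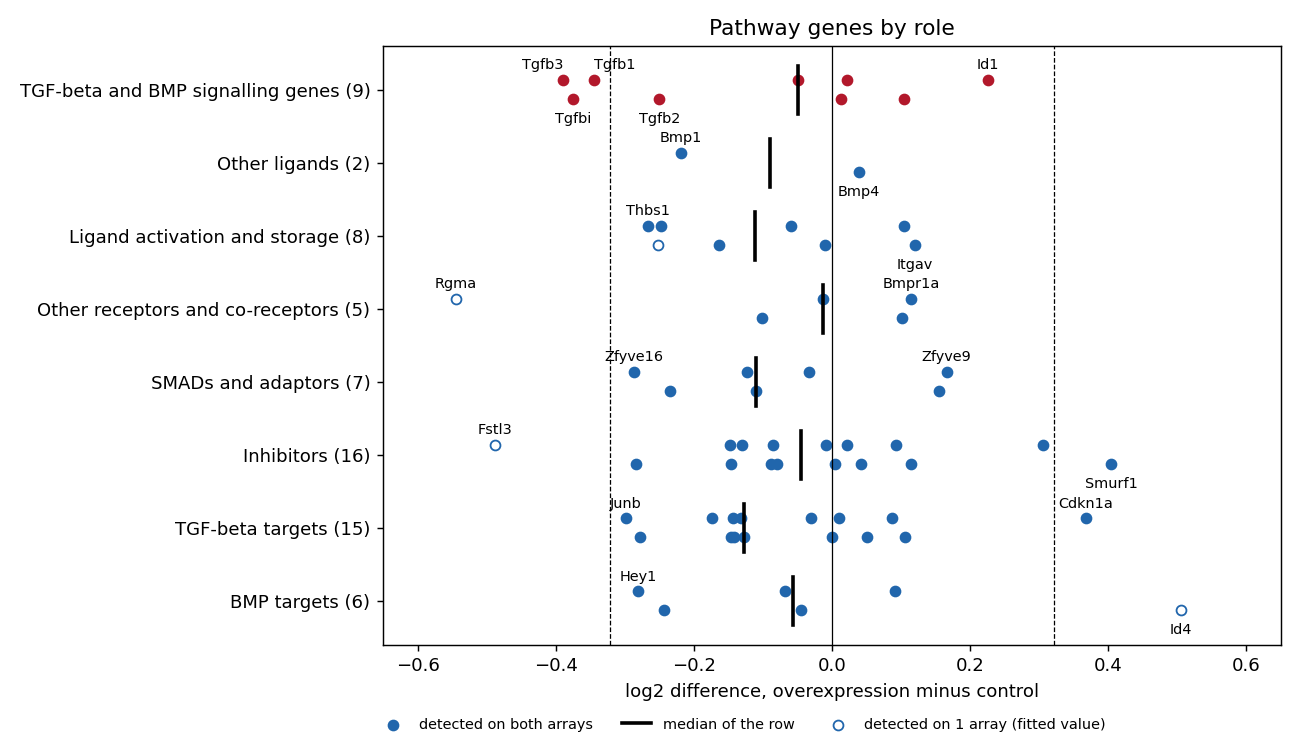
Log2 difference, overexpression minus control, of each detected gene by role, with the number of genes in parentheses. Red points are the 9 members, blue points the further pathway genes, open points genes detected on 1 array at their fitted value, black bars the row medians and dashed lines differences of -0.32 and 0.32. The medians of the 7 further groups lie between -0.13 and -0.013.

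Markers of other cell types are given beside the ligand genes. The 5 detected of 13 fibroblast and mesenchymal markers had differences below 0, with a median of -0.14, and 1 of them, Pdgfrb, the PDGF-BB receptor gene, passed 0.32 in size at -0.40. Col1a1, whose value is that median, is also counted among the TGF-beta targets above, so the 2 lists are not separate readings. The summed signal of the 5 markers was 68534 on the overexpression array and 76524 on the control array. Of this Vim gave 40776 and 44580, and S100a4 gave 16061 and 17507. Signals of different probes are not comparable as amounts of RNA, so such a sum mostly follows its brightest probes. Of the 6 detected of 10 pan-neuronal markers 2 lay below 0 and 4 above. Their median was 0.14, or 0.10 with genes detected on 1 array set at the bound. Ncam1, an adhesion molecule gene, was at -0.39. Nefm and Tubb3, detected on the overexpression array only, had fitted values of 0.57 and 0.38, and 0.36 and 0.09 at the bound. The 3 detected dopamine neuron markers lay above 0, with a median of 0.15. Of 2 detected astrocyte markers Gja1 was at 0.0016, and Slc1a3, detected in the control only, was at -0.42 at the bound. The summed pan-neuronal signal was 5546 on the overexpression array and 6264 on the control array, of which Stmn2 gave 3357 and 4050. Deposited signals were lower on the overexpression array in general, at the median ratio of 0.947 given above. Pdgfra, Lum, Dcn and Thy1 had no detected named probe. Fewer cells of a type and less RNA per cell cannot be told apart in such pooled RNA, and the part of these marker levels in the ligand differences was not tested.

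The lower ligand level depended in size, but not in direction, on how the signals were processed. Over the 8 ways of computing a gene value, including the one reported, Tgfb3 lay between -0.49 and -0.36, Tgfb1 between -0.44 and -0.26, Tgfb2 between -0.34 and -0.24 and Tgfbi between -0.48 and -0.28. Id1 stayed above 0, between 0.13 and 0.23. Detection under 0.05 and the mean of detected probes could not change these values, because the same probe gave the value of each gene. The authors' values also nearly repeat those of uncorrected quantile signals, so the 8 ways are not independent. In the authors' value table, which was made without this background correction, the log2 differences were -0.36 for Tgfb3, -0.27 for Tgfb1, -0.24 for Tgfb2, -0.28 for Tgfbi and 0.22 for Id1, so that of the 9 members only Tgfb3 was lower by 0.32 or more there.

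**Figure D4:**
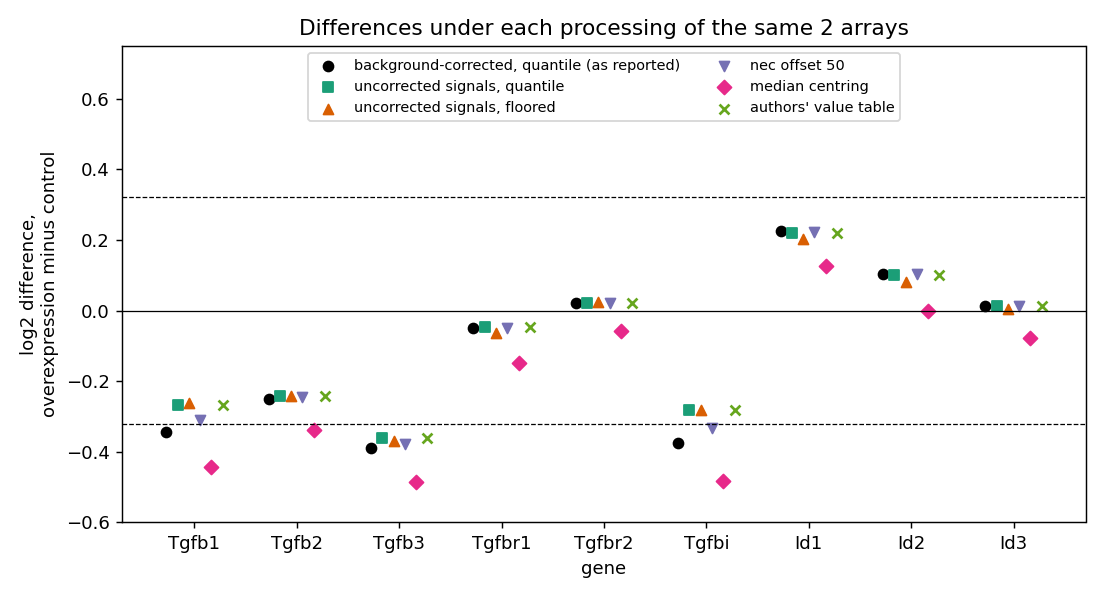
Log2 difference of each of the 9 genes under 6 ways of processing the same arrays, with dashed lines at -0.32 and 0.32. The ligand genes and Tgfbi stay below 0 and Id1 above 0 under all 6, while Id2, Id3 and Tgfbr2 change sign with median centring, which moved the median of all genes to -0.10.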

How the data were processed

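Total RNA of both groups was hybridised to Illumina bead arrays, and groups were taken from the labels. The deposited table gives, per the file headers, a signal intensity and a detection p-value for each of 24613 probes. The submitters' processing notes name BeadStudio with no version. The authors' value table holds deposited log2 values of 11090 probes, which are the probes whose detection p-value on either array was under 0.05. Its overexpression column correlated at 0.99998 with the log2 signal of the array named as test, which ties that array to its sample, and at 0.99613 with the other. The log2 scale and quantile step of that table were read from its values.

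Symbols came from the platform annotation of these 11090 probes (1328 have no symbol). Signals were corrected with limma 3.58.1 in R 4.3.3 (nec, offset 16), a step that affects dim genes most, then quantile-normalized between arrays and log2-transformed. A bound sets the bright array's value against the higher of the lowest detected value and the gene's own value on the dim array. The steps were checked on simulated data with 2-fold changes planted in genes well above background. That check does not cover differences as small as those of the members, or dim genes. With 1 array per group there was no test, and precision is limited by that number. The members, lists and motifs were chosen with earlier results of these data known. Named pathway genes were, in each role group, those with the highest and lowest difference and those past a log2 difference of 0.32 in size. Alternatives were uncorrected signals (quantile or floored), offset 50, median centring, the authors' values, detection at 0.05, the mean of a gene's detected probes, folds of 1.5 and 2, and only genes detected on both arrays.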

Additional observations from a re-analysis of the deposited data

How the results depend on the processing

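The median of the 9 members and that of the 59 pathway genes stayed below 0 under all alternatives run. The 63 values of single members under alternatives include those at detection under 0.05 and with the mean of detected probes, which could not differ for the members. All 63 moved by less than 0.149, the SD between probes of a gene. That SD is read on the same 2 arrays and holds no variation between samples, so it says nothing of replicate spread. No paired analysis was possible because each group has 1 array. Of the members, 3 genes were lower by a log2 difference of 0.32 or more, 0 at 1.5-fold and 0 at 2-fold, and 1 with uncorrected signals (quantile or floored) or the authors' values. That count was 2 with offset 50 and 4 with median centring, where Tgfb2 was at -0.34, or -0.24 relative to the shifted median. Of the pathway list, 3 genes were higher and 2 lower by a log2 difference of 0.32 or more, and 0 and 0 at 1.5-fold and at 2-fold. With uncorrected signals (quantile or floored) and with the authors' values the counts were 1 higher and 0 lower. The lower count was 0 over genes detected on both arrays, 5 at a detection p-value under 0.05 and 13 with median centring, or 2 relative to the shifted median. Of all detected genes, 190 were lower and 181 higher as reported, 77 and 77 with uncorrected quantile signals or the authors' values, 56 and 72 with floored signals, and 363 and 362 at detection under 0.05. Of 413 values of pathway genes, 13 moved by more than 0.149 and 14 changed sign, 9 of them with median centring and 3 with the mean of detected probes, where Ltbp1 was at 0.50. Of those 14, 0 belonged to a gene past a log2 difference of 0.32. Of the values of members, 3 changed sign, all with median centring (Id2, Id3 and Tgfbr2). Closeness to the lowest detected signals (196 and 201) limits what can be read of Tgfb1, Tgfbi, Smurf1 and Id4.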
